A study of Homo sapiens with 11 samples.

Results

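The uninduced, transduced derivatives of HCC78 were compared with the parental line from which they were made. The comparison used 5 of the 9 RNA-Seq libraries of the series, namely 2 of the wild-type line without doxycycline (WT dox-), 1 of the S34F line without doxycycline (S34F dox-) and 2 of the parental line. Of the 20327 protein-coding genes listed, 11677 were kept, whose mean over these 5 libraries reached 1 FPKM. FPKM counts sequenced fragments relative to the length of a transcript and to the total mapped in the library.

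HCC78 is a lung adenocarcinoma line that carries both an SLC34A2-ROS1 fusion and the U2AF1 S34F mutation, so all 5 libraries share these alleles. WT dox- and S34F dox- cells had stably received a lentiviral, tetracycline-inducible construct for U2AF1 with FLAG and 6xHA tags, in the wild-type or the S34F form, and were grown without doxycycline, the agent that switches the construct on. The study's methods describe the transduced cells as stable subclones, so each form may stand for few founder cells. Parental cells had no construct. The labels put the S34F share of U2AF1 mRNA at 33% in both WT dox- libraries, at 28% in S34F dox- and at 32% in both parental libraries. The sample labels give the parental libraries as grown without doxycycline, whereas the column headers of the paper's supplementary expression table give them as grown with it. Transduction, passage as a separate line and the doxycycline status of the parental cells therefore cannot be told apart here. Nothing in the labels says that replicates came from separate cultures, so p-values measure only the spread between these libraries, which may be technical.

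U2AF1 is the small subunit of the U2 auxiliary factor, which recognises the AG dinucleotide at the 3′ splice site while its partner U2AF2 binds the polypyrimidine tract. ROS1 is a receptor tyrosine kinase with little activity in normal adult lung. SLC34A2 encodes a sodium-phosphate cotransporter of alveolar type II cells, and in the fusion the 5′ part of SLC34A2, with its promoter, is joined to the kinase domain of ROS1, which then signals through the RAS-MAPK, PI3K and STAT3 pathways. Gene-level FPKM does not separate the fusion transcript from transcripts of the unrearranged partner genes. Both partner genes, the markers of this line, were expressed in all 5 libraries.

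The libraries were much alike. Pearson correlations of log2(FPKM + 1) ran from 0.9696 to 0.9846 over all pairs, with 0.983 between the WT dox- replicates, 0.982 between the parental replicates and 0.9696 to 0.979 between a transduced and a parental library. Between 13661 and 14688 genes of all types reached 1 FPKM per library, the fewest in S34F dox-. Non-coding RNA took 40.9% to 43.0% of summed FPKM in the transduced and 46.7% to 47.1% in the parental libraries, and its part in the results was not tested. How many reads support a value is unknown, so no counting interval can be given. Markers of other cell types were low. Summed over 10 fibroblast markers the level was 5.37 to 9.85 FPKM in the 5 libraries, and over 7 endothelial markers 1.2 to 1.94. Over 11 blood cell markers it was 17.1 to 22.9 FPKM in the transduced and 29.4 to 33.0 in the parental libraries, of which CD68 alone gave 13.5 to 22.1 and 26.2 to 27.2, while the haemoglobin genes HBA1 and HBB were listed at 0 in all 5. The part of these markers in the results was not tested.

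U2AF1 was examined first, since the construct was not switched on. U2AF1 (ENSG00000160201.7) stood at 111.5 and 109.9 FPKM in WT dox-, at 115.1 in S34F dox- and at 114.9 and 102.8 in the parental libraries, so the groups overlapped. The log2 difference, transduced minus parental on log2(FPKM + 1), was 0.04 ± 0.10 (SE; limma, adjusted p = 0.844). It turned to -0.04 without the second parental library. With doxycycline the same lines reached 277.6 and 299.1 FPKM (WT dox+) and 164.4 and 222.8 (S34F dox+).

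Of the genes of the fusion, SLC34A2 fell in the transduced lines, and ROS1 had a lower mean that did not pass the test. SLC34A2 (ENSG00000157765.7) was at 58.1 and 70.5 FPKM in WT dox-, at 53.8 in S34F dox- and at 114.7 and 165.5 in the parental libraries. Its mean was 60.8 ± 8.69 (SD, n = 3) against 140.1 ± 35.9 (SD, n = 2), a log2 difference of -1.18 ± 0.17 (SE; limma, adjusted p = 0.0361). The 3 transduced values all lay below both parental ones, and the parental libraries differed from each other by more than the transduced libraries did. ROS1 (ENSG00000047936.6) was at 14.2, 15.9 and 17.1 FPKM in the transduced and at 26.1 and 37.8 in the parental libraries, also without overlap. Its mean was 15.7 ± 1.44 against 32.0 ± 8.29 (SD, n = 3 and 2), a log2 difference of -0.96 ± 0.17 that did not pass (limma, adjusted p = 0.0541). In bulk RNA, fewer cells that express a gene and less of its RNA per cell cannot be told apart.

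The call of SLC34A2 depended on single libraries. Its adjusted p rose to 0.126 when WT dox- replicate 1 was left out, to 0.0924 when S34F dox- was, and to 0.131 and 0.171 when Parental replicates 1 and 2 were, while the log2 difference stayed between -1.44 and -0.91. In the 4 libraries of the same lines grown with doxycycline, which were outside this comparison, SLC34A2 lay between 40.1 and 56.9 FPKM and ROS1 between 8.63 and 15.7. Genes near SLC34A2 overlapped between the groups, and those near ROS1 did so in part. SEL1L3 and ANAPC4, the nearest protein-coding genes to SLC34A2 in RefSeq, were at 34.8 to 39.2 and 19.7 to 22.9 FPKM in the transduced libraries against 37.8 to 46.0 and 21.3 to 24.9 in the parental ones. DCBLD1 and GOPC, on one side of ROS1, were at 10.9 to 22.0 and 17.7 to 19.1 against 12.0 to 14.0 and 16.9 to 19.0 FPKM. VGLL2, on its other side, was at 0.44 to 0.73 against 1.13 to 1.28 FPKM, without overlap. Further from ROS1, NUS1 was at 22.6 to 27.3 against 21.2 to 21.5 FPKM and RFX6 at 0.07 to 0.18 against 0.02 to 0.05. Both were higher in the transduced libraries without overlap. RFX6 and VGLL2 were of low level, and how many reads support them is unknown. The share of all genes kept without overlap is not given here, so these separations are only descriptions.

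**Figure D1:**
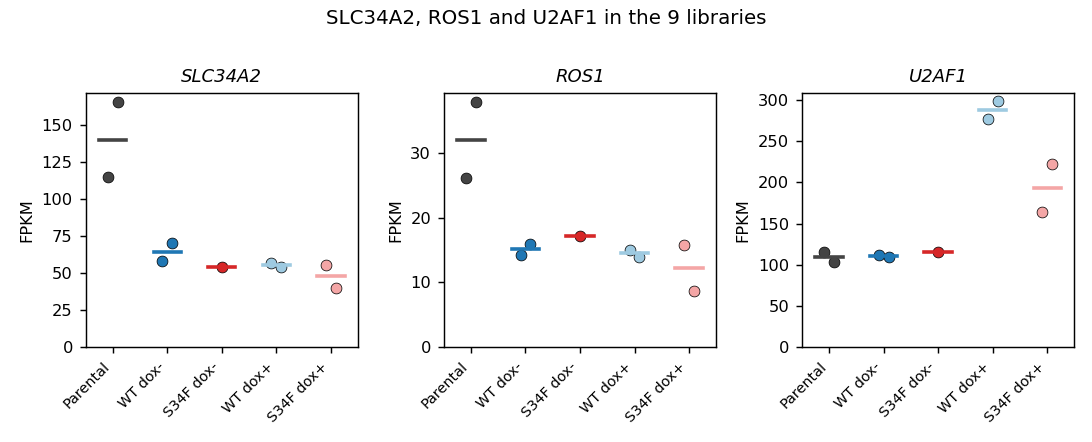
FPKM of SLC34A2, ROS1 and U2AF1 (vertical axes, from 0) in each of the 9 RNA-Seq libraries, grouped on the horizontal axis, with 1 point per library and a bar at the group mean. The 2 parental libraries lie above all 7 transduced ones for SLC34A2 and ROS1, and U2AF1 is above 164 FPKM only with doxycycline.

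Over all genes kept, 17 were higher in the transduced lines (0.146%) and 43 lower (0.368%) at an adjusted p under 0.05. At an unadjusted p under 0.05 there were 1011 higher (8.66%) and 1081 lower (9.26%). The strength of this comparison rested on few libraries. Against 60 called genes with all libraries, 9 were called without WT dox- replicate 1, all of them among the 60, and 51 without WT dox- replicate 2, of which 33 were among the 60. Without S34F dox- 14 were called, 9 of them among the 60. Without Parental replicate 1 the number was 3, with 2 of them among the 60, and without Parental replicate 2 it was 0, where limma at an unadjusted p under 0.05 still gave 782 higher and 804 lower genes. All 60 had the same sign in each alternative in which they were tested. On TPM in place of FPKM, which shifted the median of all genes by 0.105, 94 genes were higher and 58 lower, so that 61.8% of calls were higher against 28.3% on FPKM.

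**Figure D2:**
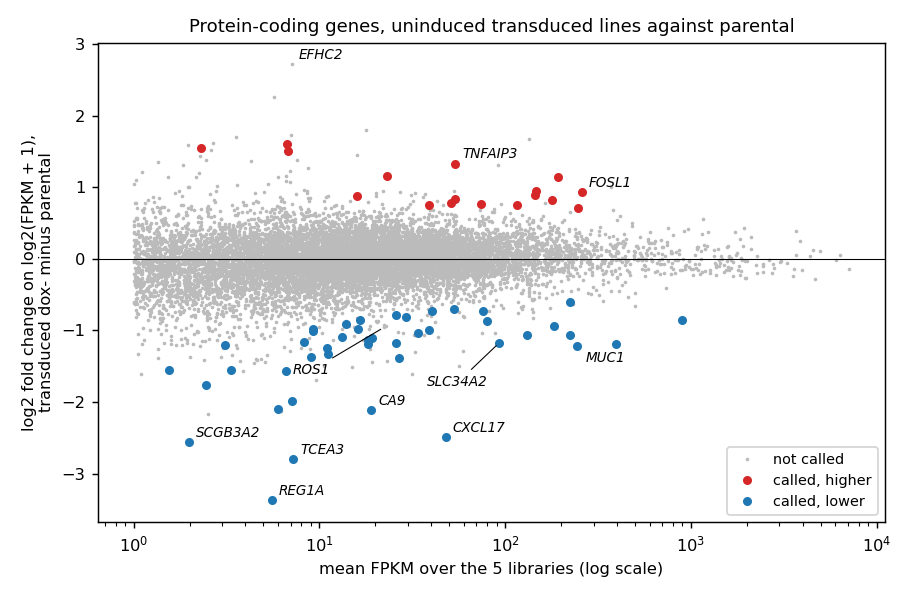
Log2 fold change of each kept protein-coding gene, transduced dox- minus parental on log2(FPKM + 1), against its mean FPKM over the 5 libraries (log axis). The 17 red points are genes called higher and the 43 blue points genes called lower, and REG1A, at -3.37, is the lowest called gene.

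Of the 16 kept members of a list of 18 genes of ROS1 and its signalling partners, SLC34A2 was the only one called. The list median was -0.10 on the log2 scale against 0.00145 over all genes kept, of which 0.368% were called lower and 0.146% higher. Among 16 kept receptor tyrosine kinases other than ROS1, none was called with limma, although at an unadjusted p under 0.05 there were 3 higher and 4 lower. That threshold was reached by 8.66% of all genes kept as higher and by 9.26% as lower. ERBB3, a kinase-impaired partner of ERBB2, was at 36.3, 57.3 and 44.7 FPKM in the transduced and 79.3 and 80.0 in the parental libraries (log2 difference -0.80, adjusted p = 0.0779). ERBB2 itself was at 75.1, 90.3 and 68.3 against 122.8 and 127.7 FPKM (-0.69, adjusted p = 0.0589). Both lay lower in each transduced library. AXL, the receptor for GAS6, was at 128.7, 115.9 and 98.9 FPKM against 61.2 and 72.2 (0.77, adjusted p = 0.0539). EGFR, the epidermal growth factor receptor, was at 28.0, 24.9 and 21.6 against 16.2 and 14.8 FPKM (0.64, adjusted p = 0.0807). These 2 lay higher in each transduced library, and none of the 4 passed the adjusted threshold. How many of all genes kept separated in this way is not given here, so these separations are only descriptions.

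On the log2(FPKM + 1) scale, the largest decreases among called genes were those of REG1A, TCEA3, SCGB3A2, CXCL17 and CA9. On the ratio of means the order differed, with MAP7D2 and PRR15L 7.28-fold and 6.32-fold lower. Both are called genes of low level that were chosen after their values were seen. REG1A, a secreted C-type lectin of regenerating epithelium, was at 0.61, 0.33 and 0.22 FPKM in the transduced and 13.1 and 13.5 in the parental libraries, 34.3-fold lower on the ratio of means (log2 difference -3.37 ± 0.21, SE; limma, adjusted p = 0.00217). CXCL17, a chemokine of airway mucosa, was at 12.6, 18.3 and 17.8 against 86.8 and 103.7 FPKM, a 5.86-fold decrease (-2.49 ± 0.18, adjusted p = 0.00217). CA9, a hypoxia-inducible carbonic anhydrase of the cell surface, was at 7.35, 6.86 and 8.42 against 40.3 and 31.7 FPKM (-2.11 ± 0.16, adjusted p = 0.00217). These genes were picked as called and without overlap, so the distance between their groups is no separate result. TCEA3, a tissue-restricted transcription elongation factor, was at 1.06, 1.96 and 1.33 against 14.7 and 17.0 FPKM (-2.80 ± 0.21, adjusted p = 0.00217). SCGB3A2, a secretoglobin of the airway epithelium, was listed at 0 in all 3 transduced libraries and at 5.41 and 4.46 FPKM in the parental ones (adjusted p = 0.0106). It was also listed at 0 in all 4 libraries grown with doxycycline. Without Parental replicate 2, the adjusted p of REG1A, CXCL17 and CA9 was 0.0688, that of TCEA3 0.107 and that of SCGB3A2 0.148. Without Parental replicate 1, REG1A and CXCL17 remained called at 0.0479, whereas TCEA3 and CA9 were at 0.0529 and SCGB3A2 at 0.149.

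MUC1 and MUC20, membrane mucins, were both lower. MUC1 was at 136.6, 188.9 and 155.3 FPKM in the transduced and 373.5 and 364.4 in the parental libraries (log2 difference -1.21 ± 0.13, SE; limma, adjusted p = 0.0194). MUC20, chosen after its values were seen, was at 117.8, 145.7 and 140.1 against 244.4 and 272.8 FPKM (-0.94, adjusted p = 0.0263). Lower too were the cytoskeletal and membrane genes TNS1, which links integrin adhesions to actin, at 3.61, 3.49 and 1.35 against 13.5 and 13.6 FPKM (-1.99, adjusted p = 0.0361), and TMEM205, a transmembrane protein, at 2.83, 4.33 and 2.80 against 12.1 and 11.2 FPKM (-1.57, adjusted p = 0.0263). KLHL24, a substrate adaptor of a ubiquitin ligase that acts on keratin, was at 4.37, 6.51 and 4.40 against 17.4 and 12.1 FPKM (-1.37, adjusted p = 0.0450). TCP11L2 was at 4.99, 8.13 and 6.52 against 15.4 and 20.3 FPKM (-1.33, adjusted p = 0.0434). Each of these genes lost its call when either parental library was left out.

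HLA-DRB5 and HLA-DRB1, which encode beta chains of the MHC class II molecule HLA-DR, were also among the decreases. HLA-DRB5 was at 2.64, 2.01 and 1.41 FPKM against 10.2 and 13.6 (-2.10, limma adjusted p = 0.0194), and HLA-DRB1 at 5.6, 8.22 and 6.51 against 18.2 and 16.5 FPKM (-1.25, adjusted p = 0.0338). Reads from these near-identical paralogs can be split between them, so the share of each is uncertain. Other class II genes were then looked up, after the values of these were seen. HLA-DMA, which helps load peptides, fell from 20.3 and 26.2 to 10.0, 11.4 and 12.3 FPKM (-0.98, adjusted p = 0.0452). HLA-DRB5, HLA-DRB1 and HLA-DMA lost their calls when either parental library was left out. The alpha chain HLA-DRA was at 1.18, 0.55 and 0.74 against 4.36 and 2.22 FPKM, the transactivator CIITA at 0.84, 1.15 and 1.25 against 1.68 and 2.19, and the invariant chain CD74 at 203.9, 238.9 and 188.2 against 232.0 and 256.4. HLA-DMB, the partner chain of HLA-DMA, was at 1.46, 3.22 and 3.07 against 5.47 and 6.75 FPKM. HLA-DQB1, a beta chain of HLA-DQ, was at 15.7, 14.4 and 10.3 against 18.7 and 15.5, and HLA-DOB, of the peptide-loading modulator HLA-DO, at 2.18, 2.99 and 2.77 against 2.28 and 2.01 FPKM. Thus HLA-DRA, CIITA and HLA-DMB did not overlap between the groups, while CD74, HLA-DQB1 and HLA-DOB did, the last with the higher mean in the transduced lines. The share of all genes kept without overlap is not given here, so this split is only a description. The other class II genes looked up were below the minimum of 1 FPKM.

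Among genes higher in the transduced lines, the first by fold with a mean of at least 5 FPKM was AKAP12, a scaffold for protein kinases A and C. It stood at 7.82, 8.44 and 12.4 FPKM against 2.29 and 2.56 in the parental libraries, 3.94-fold higher (log2 difference 1.60 ± 0.21, SE; limma, adjusted p = 0.0289). LPCAT2, an enzyme of platelet-activating factor synthesis, was at 10.1, 10.9 and 7.47 against 2.83 and 2.51 FPKM (1.5 ± 0.20, adjusted p = 0.0273). SEMA7A, a GPI-anchored semaphorin, was at 29.8, 26.8 and 32.5 against 15.5 and 10.5 FPKM (1.15 ± 0.17, adjusted p = 0.0390). The rule for naming required that these genes did not overlap between the groups. FOSL1, an AP-1 transcription factor downstream of ERK signalling, was at 310.6, 283.0 and 366.8 against 151.2 and 183.3 FPKM (0.93 ± 0.13, adjusted p = 0.0345). CYCS, which encodes cytochrome c, was at 201.0, 160.6 and 188.0 against 100.5 and 87.1 FPKM (0.96 ± 0.12, adjusted p = 0.0263).

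TNFAIP3 is given with the NF-kB targets. Further genes named by fold in this direction were increased 1.74-fold to 1.93-fold on the ratio of means. They were CHD7, a chromatin remodeller (10.2 ± 0.0707 FPKM in parental, 19.7 ± 2.28 in transduced libraries), H2AFX, the histone variant H2AX (96.1 ± 16.6 and 178.6 ± 15.1), and CTPS1, the CTP synthase of proliferating cells (36.0 ± 2.08 and 65.3 ± 1.94). SMURF2, a ubiquitin ligase of TGF-beta signalling, was at 121.2 ± 1.14 and 215.8 ± 23.4 FPKM, and DNAJA3, a mitochondrial co-chaperone, at 35.3 ± 0.269 and 61.2 ± 4.83 (all SD, n = 2 and 3; limma adjusted p from 0.0263 for CTPS1 to 0.0450 for CHD7). All 17 increases lost their call when either parental library was left out. With doxycycline, some of these genes were near the parental level and others were not. FOSL1 was between 126.9 and 157.4 FPKM in the 4 libraries with doxycycline, and CYCS between 72.8 and 115.9. By contrast, CHD7 was at 12.6 to 24.7 FPKM and LPCAT2 at 3.89 to 13.8 there.

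**Figure D3:**
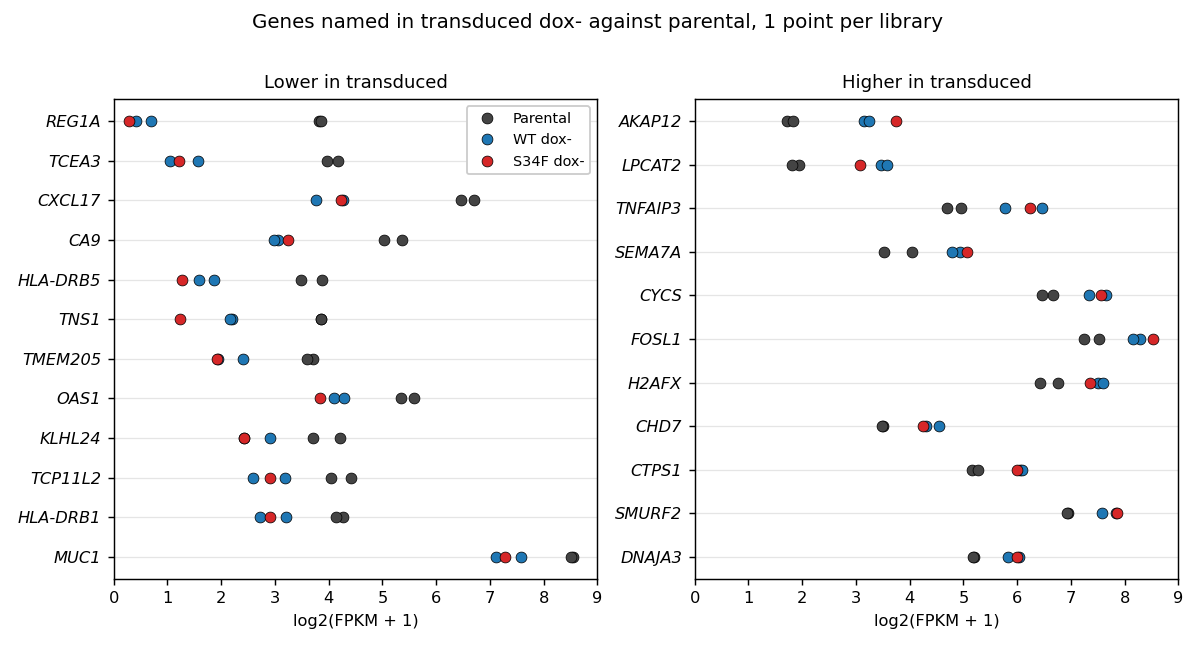
Log2(FPKM + 1) of the 11 genes named as higher and the 12 named as lower (rows), with 1 point per library for the 2 parental, 2 WT dox- and 1 S34F dox- libraries. In each row the 3 transduced points lie on one side of the 2 parental points, which the rule for naming required.

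Of 26 lung lineage genes listed, 16 were kept, of which 3 fell (SCGB3A2, MUC1 and SLC34A2), none rose and 6 were lower at an unadjusted p under 0.05, with a median log2 difference of -0.31. Among all genes kept, 0.368% were called lower, and 9.26% were lower at an unadjusted p under 0.05. NAPSA, the aspartic protease of alveolar type II cells, was at 2.79, 4.02 and 1.82 FPKM in the transduced and 7.39 and 9.97 in the parental libraries without passing the test (-1.35, limma adjusted p = 0.0615). The lists were chosen with earlier results of these data known, so their counts are descriptions.

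Of the interferon-stimulated genes, OAS1 and IFITM1 fell and none rose. Among all genes kept, 0.368% were called lower and 0.146% higher. The list had 36 genes, of which 35 were kept, 29 of them with a negative log2 difference. The list median was -0.33 against 0.00145 over all genes kept. OAS1, which senses double-stranded RNA, was at 16.1, 18.5 and 13.3 FPKM in the transduced and 46.9 and 39.4 in the parental libraries (-1.39 ± 0.16, SE; limma, adjusted p = 0.0231). IFITM1, which restricts viral entry, was at 15.2, 16.7 and 18.7 against 38.7 and 39.6 FPKM (-1.17 ± 0.13, adjusted p = 0.0194). Both fell in each transduced library. A further 18 were lower at an unadjusted p under 0.05, which made 20 of 35 in all, and 1 was higher, where 9.26% of all genes kept were lower and 8.66% higher. MX2, an antiviral GTPase, was at 8.35, 10.9 and 5.05 FPKM against 14.3 and 15.5 (adjusted p = 0.151). MHC class I presentation genes, which interferon also induces, held no call among 15 kept, and NLRC5, their transactivator, was at 71.4, 54.2 and 51.3 against 46.9 and 38.1 FPKM (0.46, adjusted p = 0.203). OAS1 and IFITM1 lost their calls without WT dox- replicate 1 (adjusted p = 0.0750 and 0.0701) and without Parental replicate 1 (0.149 for both) and replicate 2 (0.152 for both), and OAS1 also without S34F dox- (0.0510).

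Promoters of the list were searched for the core of the interferon-stimulated response element, GAAANNGAA on either strand. RefSeq windows of GRCh38.p14, from 250 bases before to 50 bases after the annotated start, were found for 9438 of the 11658 gene symbols kept. The core stood in 18 of 28 windows of the interferon list (64.3%) and in 6.56% of all windows. The match is a description and no binding was measured. The bases before the start of IFITM1 are shown because it was called and has a match, whereas the window of OAS1 has none, with the match in capitals.
IFITM1, chr11:313790-314039, plus strand: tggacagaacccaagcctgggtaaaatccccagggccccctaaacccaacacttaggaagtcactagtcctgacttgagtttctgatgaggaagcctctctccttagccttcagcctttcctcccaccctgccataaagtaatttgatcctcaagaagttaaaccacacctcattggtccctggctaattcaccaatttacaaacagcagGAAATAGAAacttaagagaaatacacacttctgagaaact

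Of 30 kept cell cycle and replication genes, CDC20 rose and none fell. CDC20, the mitotic activator of the anaphase-promoting complex, rose from 53.1 and 51.2 FPKM in the parental to 91.5, 84.1 and 92.8 in the transduced libraries (0.77 ± 0.10, SE; limma, adjusted p = 0.0280). It lost its call when WT dox- replicate 1 was left out (0.0945), when S34F dox- was (0.0924) and without Parental replicates 1 and 2 (0.149 and 0.152). The list median was 0.21 against 0.00145 over all genes kept, and 28 members had a positive difference. At an unadjusted p under 0.05 the counts were 14 higher and 0 lower. Over all genes kept, 8.66% were higher and 9.26% lower at that threshold, and 0.146% were called higher and 0.368% lower. The mitotic kinase AURKA was at 52.0, 41.9 and 46.9 against 30.8 and 30.2 FPKM (adjusted p = 0.0702), the checkpoint kinase BUB1 at 47.7, 37.3 and 42.0 against 28.0 and 30.9 (adjusted p = 0.116), and the proliferation antigen MKI67 at 148.8, 123.8 and 128.9 against 99.0 and 100.2 (adjusted p = 0.111). The groups did not overlap in these genes, which were named for the size of their change. The share of all genes kept without overlap is not given here, so this is only a description. ANLN, an actin-binding protein of the cleavage furrow that was on no list and was chosen after its values were seen, rose from 181.3 and 175.3 to 309.1, 275.8 and 290.6 FPKM (0.71, adjusted p = 0.0263).

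The CCAAT box, CCAAT on either strand, which many mitotic promoters carry, stood in 20 of 24 cell cycle windows (83.3%) and in 36.9% of all windows. CDC20 is shown as the called member, with both matches in capitals.
CDC20, chr1:43358731-43358980, plus strand: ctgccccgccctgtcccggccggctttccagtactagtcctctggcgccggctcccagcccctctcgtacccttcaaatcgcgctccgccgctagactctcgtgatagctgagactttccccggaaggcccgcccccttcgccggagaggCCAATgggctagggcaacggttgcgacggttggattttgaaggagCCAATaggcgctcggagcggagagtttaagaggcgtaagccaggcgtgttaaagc

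NF-kB targets changed in both directions. Of 24 kept, TNFAIP3 rose and TNFSF10 and LCN2 fell, and at an unadjusted p under 0.05 there were 11 higher and 3 lower, with a median of 0.37. The shares of all genes kept at that threshold were 8.66% higher and 9.26% lower, and those called were 0.146% higher and 0.368% lower. TNFAIP3, a feedback inhibitor of the pathway, was at 87.4, 53.4 and 74.1 FPKM in the transduced against 29.9 and 25.0 in the parental libraries (1.33 ± 0.20, SE; limma, adjusted p = 0.0361). TNFSF10, the death ligand TRAIL, was at 8.35, 10.4 and 7.81 against 18.8 and 20.9 FPKM (-1.09 ± 0.16, adjusted p = 0.0349). LCN2, an iron-sequestering secreted lipocalin chosen after its values were seen, was at 717.6, 735.0 and 572.6 against 1256 and 1175 FPKM (-0.86 ± 0.12, adjusted p = 0.0295). TNFSF10 is also induced by interferon, and LCN2 by other inflammatory signals. LTB, a TNF family cytokine, was at 13.2 and 18.4 in WT dox-, 34.2 in S34F dox- and 5.93 and 7.68 FPKM in the parental libraries (1.46, adjusted p = 0.0849). The chemokine CCL2 was at 9.31, 7.11 and 7.32 against 3.84 and 2.31 FPKM (1.15, adjusted p = 0.0592). TNFAIP3, TNFSF10 and LCN2 were called without WT dox- replicate 2 and lost their calls when any of the other 4 libraries was left out (adjusted p from 0.0618 to 0.185).

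Of 18 kept MAPK output genes, FOSL1 was called, with a median of 0.16 and with, at an unadjusted p under 0.05, 3 higher and 1 lower. That threshold was passed by 8.66% of all genes kept as higher and 9.26% as lower, while 0.146% were called higher and 0.368% lower. FOS had a lower mean, at 2.45, 18.6 and 14.8 FPKM against 5.85 and 34.4, with overlap (-0.61, limma adjusted p = 0.739). CCND1, which encodes cyclin D1, was at 135.7, 134.4 and 116.7 FPKM against 87.4 and 90.9 (0.52, limma adjusted p = 0.0642), and the ephrin receptor EPHA2 at 36.2, 51.4 and 44.2 against 25.0 and 34.5 (0.55, adjusted p = 0.179). Of 33 kept mesenchymal and matrix genes, 1 was called higher and 1, TPM2, lower, beside the same called shares of all genes kept. TPM2, beta-tropomyosin, was at 23.4, 21.9 and 21.5 against 37.4 and 42.8 FPKM (-0.82 ± 0.12, adjusted p = 0.0361). It lost its call when any single library was left out (limma adjusted p from 0.0717 to 0.184). THBS1, a matrix glycoprotein of the thrombospondin family, was at 46.8, 37.9 and 30.6 against 20.5 and 19.2 FPKM (0.90, adjusted p = 0.0596). At an unadjusted p under 0.05 the counts of this list were 8 higher and 2 lower, beside 8.66% and 9.26% of all genes kept. None of 32 kept epithelial junction and keratin genes was called with limma. An unadjusted p under 0.05 was reached by 4 higher and 7 lower members, beside the same shares of all genes kept. The list median was -0.07 against 0.00145 over all genes kept, with 10 positive and 22 negative differences. Of the lower members, the tight junction gene CLDN1 was at 8.51, 10.2 and 12.4 against 18.4 and 22.7 FPKM (-0.93, adjusted p = 0.0596) and the epithelial transcription factor ELF3 at 174.2, 227.4 and 171.3 against 289.1 and 295.1 (-0.62, adjusted p = 0.0729).

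Metabolic and stress lists held few calls. Of 24 kept glycolysis and hypoxia genes CA9 alone was called. The median was -0.04, and at an unadjusted p under 0.05 there were 7 lower and 0 higher. Of all genes kept, 9.26% were lower and 8.66% higher at that threshold, and 0.368% were called lower and 0.146% higher. ANKRD37, another hypoxia target, was at 2.21, 1.99 and 3.14 FPKM against 6.05 and 4.0 (adjusted p = 0.147). The core of the hypoxia response element, ACGTG on either strand, stood in 11 of 22 windows of this list (50.0%) and in 27.6% of all windows. The bases before the start of CA9 hold 1 match, in capitals, which on the plus strand reads as the reverse complement.
CA9, chr9:35673678-35673927, plus strand: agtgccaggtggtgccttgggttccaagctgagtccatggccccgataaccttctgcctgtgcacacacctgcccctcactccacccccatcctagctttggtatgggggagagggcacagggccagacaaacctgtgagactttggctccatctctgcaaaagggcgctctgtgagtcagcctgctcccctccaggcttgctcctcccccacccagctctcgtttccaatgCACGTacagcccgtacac

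None of 25 kept cholesterol synthesis and uptake genes was called with limma, and 7 were lower and none higher at an unadjusted p under 0.05, with a median of -0.29. For this and the next lists, the shares of all genes kept at that threshold were 9.26% lower and 8.66% higher. FDPS, farnesyl diphosphate synthase, was at 201.4, 343.8 and 310.7 FPKM against 405.5 and 428.3 (adjusted p = 0.189). In the program of ATF4, the stress-induced transcription factor, none of 28 was called and 5 were lower at an unadjusted p under 0.05. DDIT4, an inhibitor of mTORC1, was at 37.1, 49.9 and 27.2 against 85.7 and 98.1 FPKM (-1.29, adjusted p = 0.0535). NUPR1, a stress-induced chromatin protein, was at 3.19, 6.56 and 5.85 FPKM in the transduced and 8.50 and 29.2 in the parental libraries, which were themselves far apart (-1.49, adjusted p = 0.148). Of 20 genes of 3′ splice site recognition, all kept, none was called with limma and 5 were higher at an unadjusted p under 0.05, with a median of 0.15. SF3A1, a subunit of the U2 snRNP, was at 206.4, 159.2 and 191.4 against 125.7 and 118.3 FPKM (0.59, adjusted p = 0.0690), and U2AF2, the partner of U2AF1, at 182.1, 174.5 and 148.2 against 127.6 and 114.9 (0.47, adjusted p = 0.101).

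The other lists held no call with limma. At an unadjusted p under 0.05, which 8.66% of all genes kept reached as higher and 9.26% as lower, 3 of 21 kept p53 targets were higher and 3 lower, as were 2 and 4 of 21 NRF2 antioxidant genes, 1 and 4 of 12 xenobiotic enzymes and transporters, and 0 and 1 of 12 imprinted genes. None of the 13 mitochondrially encoded genes passed even that threshold. Of the 30 cancer-testis antigens listed, 1 was kept, and XAGE1A, which is described below, was not on that list.

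**Figure D4:**
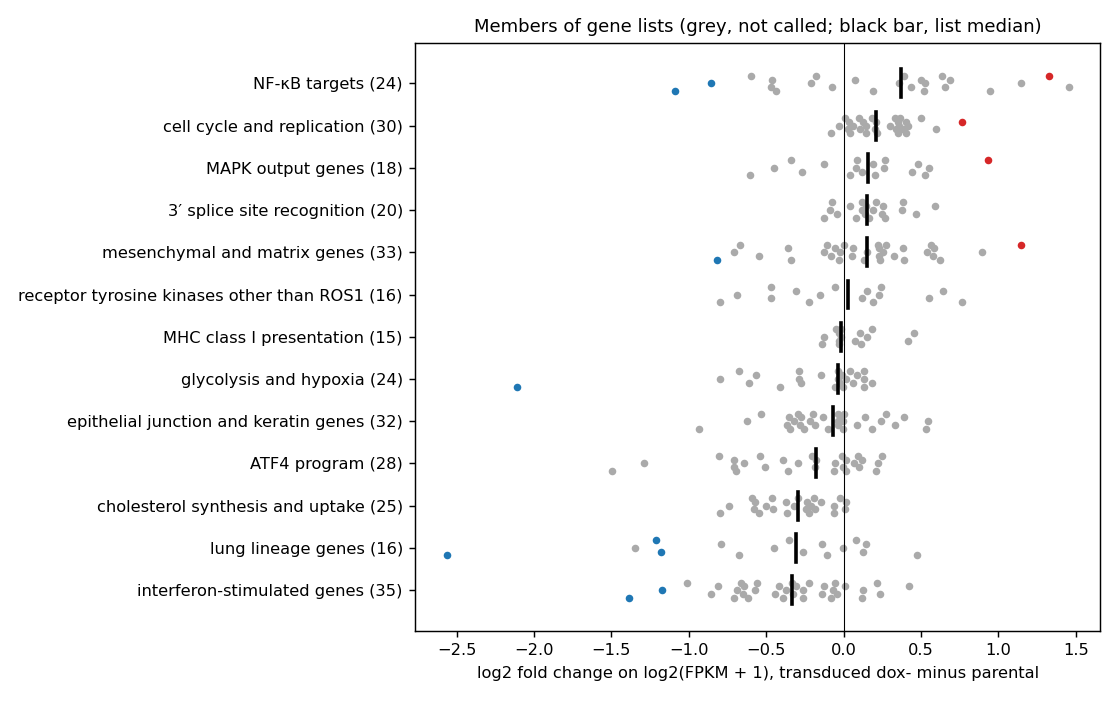
Log2 fold change, transduced dox- minus parental on log2(FPKM + 1), of the kept members of 13 gene lists (rows, with the number of members), as 1 point per gene and a black bar at the list median. Red and blue points are genes called higher and lower, grey points were not called, and medians run from -0.33 for interferon-stimulated genes to 0.37 for NF-kB targets.

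Each transduced line was also set against the parental libraries on its own, in a fit of 3 groups in which the single S34F dox- library was assumed to vary like the other groups. The 2 comparisons share their parental libraries. For WT dox- against parental, 3 genes were higher (0.0257%) and 10 lower (0.0856%). The 3 that rose were EFHC2, CYP27A1 and LPCAT2, at log2 differences of 4.10, 3.46 and 1.65 (limma, adjusted p = 0.00332, 0.00585 and 0.0393). Among the 10 was ANPEP, aminopeptidase N, chosen after its values were seen, at 20.0 and 31.3 FPKM in WT dox-, 49.1 in S34F dox- and 89.8 and 90.7 in the parental libraries (-1.81, adjusted p = 0.0393). With single libraries left out, the total of 13 became 25 without WT dox- replicate 2 (7 of them among the 13), 6 and 3 without Parental replicates 1 and 2, and 0 without WT dox- replicate 1, where limma at an unadjusted p under 0.05 gave 463 higher and 517 lower genes.

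For S34F dox- against parental, 5 genes were higher (0.0428%) and 10 lower (0.0856%). Among the 5 that rose were MMP1, an interstitial collagenase, LTB, AKAP12 and the cytokine IL32, at log2 differences of 2.55, 2.18, 1.97 and 1.72 (limma, adjusted p from 0.0413 to 0.0442). MMP1, chosen after its values were seen, was at 9.44 FPKM in S34F dox-, 3.33 and 3.37 in WT dox- and 1.00 and 0.59 in the parental libraries. FOLR1, a folate receptor of lung epithelium chosen in the same way, was at 4.43 FPKM in S34F dox-, 8.92 and 12.5 in WT dox- and 22.9 and 26.2 in the parental libraries (-2.23, adjusted p = 0.0413). With single libraries left out, the total of 15 became 6 without either WT dox- replicate, 1 without Parental replicate 1 and 0 without Parental replicate 2, where limma at an unadjusted p under 0.05 gave 454 higher and 570 lower genes.

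The transduced lines were then tested against each other. In S34F dox- against WT dox-, none of the genes kept was higher (0%) and 2 were lower (0.0171%) at an adjusted p under 0.05 (limma). At an unadjusted p under 0.05 there were 220 higher (1.88%) and 207 lower (1.77%). EFHC2, an EF-hand protein of axonemal microtubules, was at 18.5 and 16.7 FPKM in WT dox-, at 0.05 in S34F dox- and at 0.07 and 0.10 in the parental libraries (S34F minus WT, -4.15 ± 0.29, SE; adjusted p = 0.0131). CYP27A1, a mitochondrial sterol hydroxylase, was at 13.8 and 14.0 FPKM in WT dox-, 0.21 in S34F dox- and 0.45 and 0.25 in the parental libraries (-3.62 ± 0.29, adjusted p = 0.0182). Both genes were thus near 0 in the parental and S34F dox- libraries and expressed in both WT dox- libraries. With doxycycline, EFHC2 was at 12.6 and 10.1 FPKM in the WT line and 0 and 0.43 in the S34F line, and CYP27A1 at 28.0 and 36.6 against 0.86 and 0.74. Without WT dox- replicate 1 or 2 the differences were -4.08 and -4.22 for EFHC2 and -3.63 and -3.61 for CYP27A1. That leaves 1 library in each line, with the spread taken from the parental pair alone, and neither gene was then called (adjusted p from 0.192 to 0.288).

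The nearest neighbours of EFHC2 and CYP27A1 in RefSeq did not show this pattern. FUNDC1, next to EFHC2, was at 11.4 and 16.1 FPKM in WT dox-, 15.8 in S34F dox- and 12.1 and 16.3 in the parental libraries, and NDP, on the other side, was at 0.3 FPKM or less throughout. TTLL4, next to CYP27A1, was at 15.8, 12.1, 15.2, 13.2 and 8.20 FPKM in the same order, and PRKAG3, on its other side, at 0.19 FPKM or less. No read positions were analysed here.

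Other genes named between the lines did not pass the adjusted threshold. NTM, a neuronal GPI-anchored adhesion protein, was at 25.7 and 21.0 FPKM in WT dox-, 5.64 in S34F dox- and 10.97 and 9.14 in the parental libraries (-1.87, limma adjusted p = 0.114). XAGE1A, a cancer-testis antigen gene, was at 98.9 and 77.3, 23.4, and 148.6 and 91.2 FPKM (-1.86, adjusted p = 0.333), and it shares reads with near-identical copies such as XAGE1D, so its level is uncertain. In the other direction, DSP, which encodes desmoplakin of desmosomes, was at 4.93 and 2.98 FPKM in WT dox-, 17.2 in S34F dox- and 4.23 and 4.13 in the parental libraries (1.91, adjusted p = 0.333). IL32 was at 45.3 and 49.5, 106.8, and 28.7 and 35.3 FPKM (1.16, adjusted p = 0.333). VIM, the intermediate filament vimentin, was at 19.9 and 12.1, 42.1, and 22.0 and 22.3 FPKM (1.38, adjusted p = 0.671). ISG20, an interferon-induced exonuclease, was at 3.19 and 2.72, 9.15, and 10.2 and 9.58 FPKM (1.36, adjusted p = 0.402). For DSP, IL32 and VIM the single S34F dox- library was the highest of the 5, while for ISG20 it lay near the parental libraries. With doxycycline the S34F line had 19.3 and 21.9 FPKM of DSP and 107.8 and 106.3 of IL32, and the WT line 4.63 and 5.4 and 44.3 and 48.6. VIM was at 73.2 and 66.2 FPKM in the S34F line with doxycycline and at 27.8 and 28.1 in the WT line, and NTM at 6.42 and 7.69 against 14.0 and 20.6. For ISG20 these lines overlapped with doxycycline, at 5.35 and 8.96 against 6.52 and 6.34 FPKM, and so they did for XAGE1A, at 60.8 and 73.5 against 40.2 and 66.5, where the S34F line then had the higher mean.

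**Figure D5:**
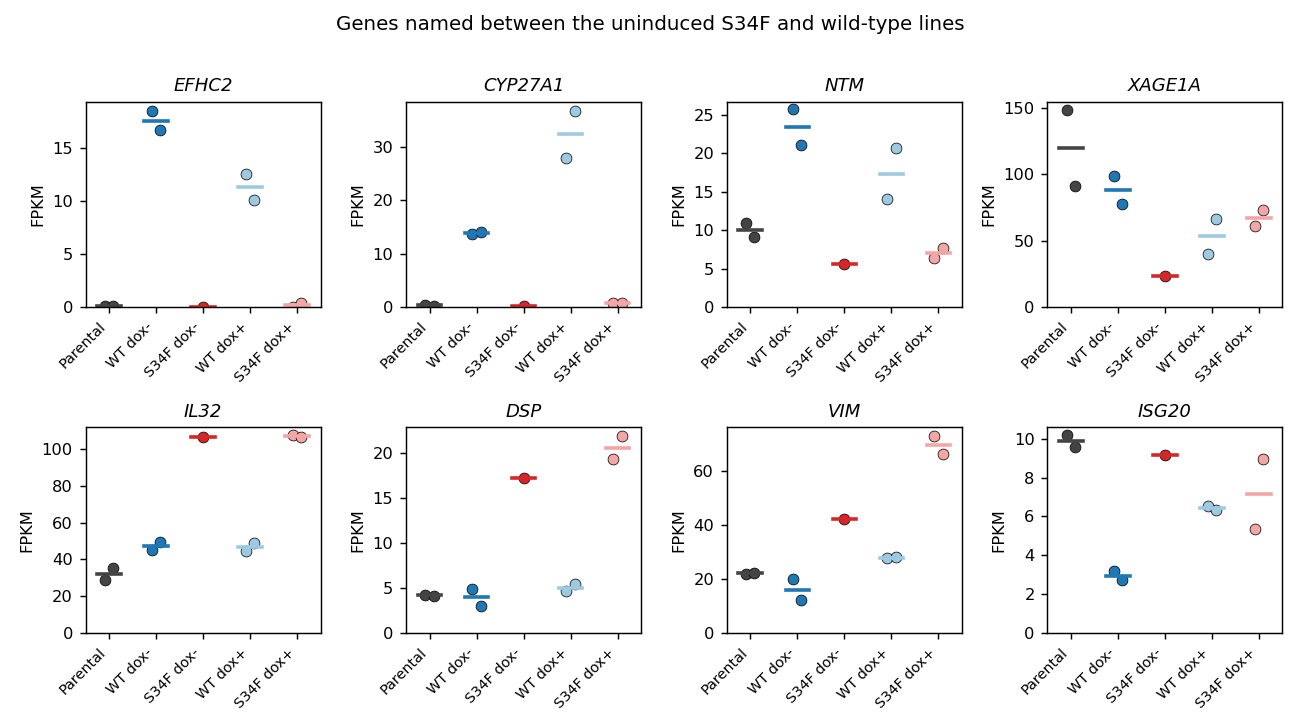
FPKM (vertical axes, from 0) of 8 genes named between S34F dox- and WT dox- in each of the 9 RNA-Seq libraries, grouped on the horizontal axis, with 1 point per library and a bar at the group mean. EFHC2 and CYP27A1 are above 10 FPKM in all 4 libraries of the wild-type line and below 1 in the parental and S34F libraries.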

How the data were processed

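Total RNA was made into stranded libraries (SMARTer Stranded Total RNA-Seq kit) and sequenced in paired-end reads. The authors trimmed the reads, aligned them to GRCh37/hg19 with STAR 2.3.0 and computed gene-level values with RSEM 1.2.29, as the submitters' processing notes and the methods give it. The deposited FPKM values of the 5 libraries, 1 column each, were used as they stood, and the deposited TPM values served as an alternative. The gene annotation is not given in the sources used here. The table lists 57773 genes and holds no counts, so sequencing depth is unknown and no count model could be used.

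Protein-coding genes whose mean over the 5 libraries reached 1 FPKM were tested on log2(FPKM + 1), with a pseudocount of 1, by limma-trend (limma 3.58.1, R 4.3.3), two-sided, with Benjamini-Hochberg adjustment over all 11677 genes. A gene was called at an adjusted p under 0.05. A fold change on this scale understates the change of low genes. The 3 transduced libraries formed 1 group against the 2 parental ones, which leaves 3 residual degrees of freedom, and a fit of 3 groups, with 2 residual degrees of freedom, gave the comparisons of single lines. The fit was tested on simulated data beforehand.

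Named were U2AF1, ROS1 and SLC34A2, up to 12 genes in each direction by fold among those called whose mean reached 5 FPKM, without overlap between the groups, up to 8 in each direction between the lines, chosen alike and filled from genes with an unadjusted p under 0.05, and up to 4 members of each of 23 gene lists by size of change. Other named genes are said to be chosen after their values were seen. The members and lists were chosen with earlier results of these data known. The lists were written from general knowledge, and no set test was run. Of repeated symbols the entry of highest mean was taken. Some genes that the rule names are not reported here.

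The labels share replicate numbers between WT dox- and the parental line. The correlation of the replicate differences between these groups was 0.105 over genes, from 2 pairs, so the numbers were not taken to pair the libraries. Alternatives covered the pseudocount (0.1), the minimum (none, or 5 FPKM), scaling, TPM, gene types, each library left out, all 9 libraries, a replicate block and the trend. Quantile normalization of named genes was added after the data were seen. Promoter windows came from RefSeq (GRCh38.p14), and neighbours from its gene order. The splicing tables, which hold the authors' comparison of S34F with wild-type cells, and the iCLIP samples were not used here.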

Additional observations from a re-analysis of the deposited data

Results flagged for a closer look

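The effects of the 2 transduced lines, each against the same parental libraries, differed for 2 genes by the test of the difference itself (S34F dox- minus WT dox-, limma). For EFHC2 the log2 difference was -4.15 (adjusted p = 0.0131), with 18.5 and 16.7 FPKM in the WT dox- libraries against 0.05 in S34F dox-. For CYP27A1 it was -3.62 (adjusted p = 0.0182), with 13.8 and 14.0 FPKM against 0.21. In both, the lower value stood in the single S34F dox- library, and the libraries of the S34F line with doxycycline were at 0 and 0.43 FPKM of EFHC2 and 0.86 and 0.74 of CYP27A1. The part of transduction, of the separate growth of each line and of the construct in these differences cannot be told apart.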

How the results depend on the processing

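All counts below are genes called with limma at an adjusted p under 0.05. For transduced dox- against parental, against 60 in the report, the count was 5 with no minimum FPKM, 104 with a minimum of 5 FPKM, 152 on TPM, 10 with all gene types, 182 with all 9 libraries in the fit, 13 without a trend in the empirical Bayes step and 28 with the lines weighted equally. It lay within 1.5 times the reported count with a pseudocount of 0.1, median-ratio scaling and quantile normalization, and between 0 and 51 with each library left out. Of the 60 genes, 8 were called under the smaller pseudocount, both scalings, TPM and no trend alike, and CXCL17 and REG1A were called in 14 of 15 alternatives. For WT dox- against parental, against 13, the count was 0 with no minimum (at an unadjusted p under 0.05, 971 higher and 1017 lower), 8 with all gene types, 58 with all 9 libraries and 0 to 25 with each library left out. For S34F dox- against parental, against 15, it was 0 with no minimum (701 and 847 at an unadjusted p under 0.05), 8 with all gene types, 32 with all 9 libraries and 0 to 6 with each library left out. For S34F dox- against WT dox-, against 2, it was 4 with a pseudocount of 0.1, 0 with no minimum (359 and 429 at an unadjusted p under 0.05), 5 with all gene types and 0 to 2 with each library left out. The setting with no minimum tested 19413 genes and the one with all types 14006, and the cause of the other changes was not tested.

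With the replicate number as a block, the counts were 153 for transduced dox- against parental, 26 for WT dox- against parental, 12 for S34F dox- against parental and 0 for S34F dox- against WT dox- (at an unadjusted p under 0.05, 270 and 330), in samples that share only a number. Of the values of named genes under other settings, 580 stayed on their side of the threshold, 253 lost the call, 14 gained it and 1 changed sign, U2AF1, whose log2 difference ran from -0.0353 (without Parental replicate 2) to 0.125 with single libraries left out. Of the list medians, 77 moved by less than the spread between replicates and 11 by more, mostly on TPM, where the median of MHC class I genes turned from -0.02 to 0.09 and that of epithelial genes from -0.07 to 0.04. All comparisons rest on at most 3 libraries against 2, those of the S34F line on a single library, and the depth behind each value is unknown.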

Other observations

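Some called genes lay outside the lists and were chosen after their values were seen. The lysosomal proteases CTSD and CTSH were both lower. CTSD was at 138.9, 187.2 and 143.4 FPKM in the transduced and 351.0 and 303.4 in the parental libraries (log2 difference -1.07, limma adjusted p = 0.0289), and CTSH at 55.9, 60.5 and 63.3 against 94.3 and 104.8 FPKM (-0.72, adjusted p = 0.0361). CRABP2, a carrier of retinoic acid to its nuclear receptor, was at 195.7, 324.8 and 275.9 against 598.6 and 583.5 FPKM (-1.18, adjusted p = 0.0434). TSC22D3, a glucocorticoid-induced regulator, fell from 26.3 and 28.8 to 12.0, 12.5 and 11.7 FPKM (-1.13, adjusted p = 0.0194), and PDCD4, an inhibitor of translation, from 70.1 and 68.3 to 40.4, 44.7 and 42.0 FPKM (-0.70, adjusted p = 0.0368). COL8A1, a short-chain collagen, rose from 0.47 and 0.60 to 3.53, 3.21 and 3.70 FPKM (1.55, adjusted p = 0.0301). All of these lost their call when either parental library was left out.

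Outside protein-coding genes, 2329 genes of other types reached a mean of 1 FPKM, and 3 were higher and 2 lower when all 14006 genes were tested with limma. In that test 10 of the 14006 genes were called, 3 higher and 7 lower. The small nuclear and Cajal body RNAs RNU1-120P and SCARNA21 were listed at 0 in the 3 transduced libraries and at 38.4 and 33.6, and 62.1 and 43.7 FPKM, in the parental ones. SNORA71D and SCARNA18 were listed at 0 in both parental libraries and at 74.4, 50.0 and 49.4, and 74.4, 100.0 and 24.7 FPKM, in the transduced ones. The antisense RNA RP11-498C9.3 was at 8.6, 6.13 and 9 FPKM against 0 and 0. Small RNAs can have near-identical copies between which reads are split, so these levels are uncertain.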
